A study of Mus musculus with 8 samples.

Results

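The common gamma chain receptors are a small family of cytokine receptors on leukocytes, and 8 of their genes were followed here through the immune cells of the mouse brain. The genes were taken by symbol from the 32285 genes of the deposited tables, and all 8 were present. They were Il15 (a ligand), Il2rg (the shared chain), and Il2ra, Il2rb, Il7r, Il15ra, Il4ra and Il21r (the chains that set which cytokine is bound). The name of the family fits 7 of the 8 genes, since Il15 encodes a cytokine and not a receptor. For each gene, unique molecular identifiers (UMIs, each standing for 1 captured transcript molecule) were summed over the cells of a type in a library and given per 1000000 UMIs of those cells (CPM).

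Cells positive for CD45.2 were sorted from the perfused brains of C57BL/6J (WT) mice and of App NL-G-F mice, in which the humanized App gene carries 3 familial Alzheimer's disease mutations at its own locus, so that amyloid forms without a transgene promoter. All mice were 16 weeks old by the labels, and the study's methods give an age of 3 months. In each genotype 1 library came from controls on water, 1 from acute colitis (2% dextran sulfate sodium, DSS, in the drinking water for 7 days), 1 from chronic colitis (3 cycles of 2% DSS for 5 days, each followed by water alone) and 1 from food allergy (ovalbumin given by injection with alum and then by mouth). The samples pooled in a library were marked with hashtag antibodies, which split the cells carrying 1 hashtag into 30 hashtag groups. The labels do not say which mouse or pool a hashtag stands for.

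In the signalling of this family, the product of Il2rg pairs with a private chain and passes the signal to the kinases Jak1 and Jak3 and to STAT factors. IL-2 and IL-15 share the chain encoded by Il2rb, and each has its own alpha chain, encoded by Il2ra and Il15ra, the last of which holds IL-15 on the surface of the cell that makes it and presents it to neighbouring lymphocytes. IL-7 is known as a survival factor of T cells, innate lymphoid cells and developing B cells, IL-15 of NK cells and memory CD8 T cells, IL-2 of regulatory T cells, IL-4 (through Il4ra) as a signal to B cells, myeloid cells and T helper cells, and IL-21 as a signal to B and T cells.

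The genes lie on 5 chromosomes of the mouse genome (GRCm38, GENCODE vM21). Il2ra (chr2:11642807-11693193, plus strand) and Il15ra (chr2:11705290-11734317, plus strand) are neighbours 12.1 kb apart. Il4ra (chr7:125552120-125579474, plus strand) and Il21r (chr7:125603429-125633570, plus strand) are neighbours 24.0 kb apart, and no coding gene is annotated between the genes of either pair. Il7r (chr15:9505788-9530176) and Il2rb (chr15:78479256-78495271) lie on the minus strand of 1 chromosome. Il2rg is at chrX:101264378-101268255 on the minus strand, and Il15 at chr8:82331632-82403222 on the minus strand.

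The 8 libraries held 4873 to 7199 cells, 50102 in all, with 25615052 to 54618574 UMIs per library and a median of 2777 to 4130 UMIs per cell. Of these cells, 4678 (9.34%) carried several hashtags and 1476 carried none. The 28 pairs of libraries shared 34 to 72 cell barcodes each, where chance gives 36.0 to 68.4. The WT control library stood apart from the other 7. In its CD4 T cells, genes whose longest transcript is at most 800 nt gave 8.88% of the UMIs, against 11.7% to 13.3% in the others, and in its monocytes 8.86% against 11.9% to 13.2%. No member was among the 46 genes that were lower there than in App NL-G-F control in at least 12 of 14 cell types. The hashtag groups also fell into 2 sets by 10 immediate-early genes in T cells, with 14 groups at 613 to 1678 CPM and 16 groups at 3311 to 6295 CPM.

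Cells were clustered with the 8 genes left out, and 22 types were named from marker genes (a cluster called NK cells is NK-like by its markers). Ptprc, the gene of CD45, had a UMI in 68.5% of all cells, and Snap25, a neuronal gene, in 6 cells. The lymphoid types were B cells (7167 cells), developing B cells (4666), plasma cells (1290), CD4 T cells (4757), CD8 T cells (3613), gamma-delta T cells (1731, led by Trdv4, Cd163l1, Tcrg-V6 and Il17a), ILC2 (group 2 innate lymphoid cells, 4597, led by Calca, Areg, Gata3 and Il1rl1) and NK cells (3194). The myeloid types were neutrophils (5826), their precursors (2802), monocytes (1404), macrophages (2261, led by C1qa, Apoe, Pf4 and Mrc1), plasmacytoid (767), conventional type 1 (1847), conventional type 2 (1299) and migratory (128) dendritic cells, basophils (444) and mast cells (284). The conventional type 2 dendritic cells joined 2 clusters. The first, of 707 cells, was led by Cd209a, Mgl2 and Clec10a. The second, of 592 cells, was led by Cd209d, Cd7 and Gm34680, and 1 library gave 34.5% of it. Its leading genes held 2 markers of conventional type 2 and 1 of plasmacytoid dendritic cells. No cluster had the markers of microglia, whose genes P2ry12, Tmem119 and Sall1 had a UMI in 1.63%, 1.58% and 0.0539% of all cells. Because genes that vary together with the 8 members still shaped the clusters, the levels by type are descriptions.

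The lymphoid types made up 61.9% of the cells and the myeloid types 34.1%. Of the 42369 UMIs of Il2rb, 90.5% lay in lymphoid cells, as did 91.4% of the 10708 of Il2ra, 88.4% of the 65658 of Il7r and 79.5% of the 73665 of Il2rg. Il15 was spread the other way, with 72.1% of its 4178 UMIs in myeloid cells. Il15ra (53.1% of 2629) and Il4ra (59.8% of 13269) also had the larger share in myeloid cells, and Il21r (68.4% of 13531) in lymphoid cells. RNA free in the droplets was estimated per library from S100a8 and S100a9 in B cells, and this estimate was used for all types. Its share of the UMIs of a library was put at 0.192% to 1.40%, which gives at most 2.46 CPM for any of the 8 genes.

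**Figure D1:**
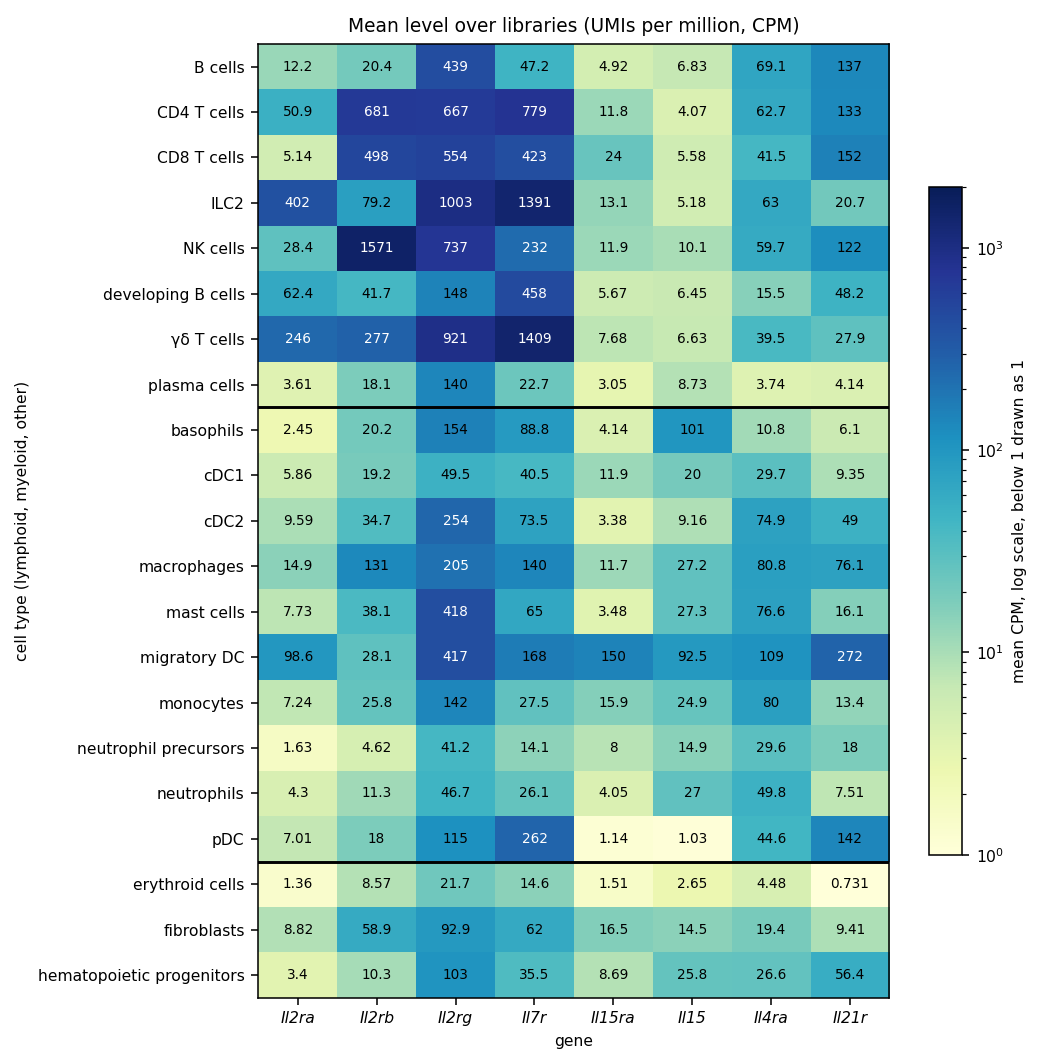
Mean level of the 8 genes (columns) in 21 cell types (lymphoid, myeloid and other, top to bottom), printed in CPM and coloured on a log scale, over the libraries with at least 20 cells of a type (cDC1, cDC2, pDC and migratory DC are the conventional type 1, conventional type 2, plasmacytoid and migratory dendritic cells). Il2rb is highest in NK cells (1571 CPM), Il2ra and Il2rg in ILC2, Il7r in gamma-delta T cells and ILC2, and Il15 in basophils and migratory dendritic cells.

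Il15, the ligand, was highest in basophils, at 101 CPM ± 27.8 (SD, n = 7 libraries), and 39.2% of basophils had a UMI of it. The 7 libraries ran from 66.1 to 150 CPM. Migratory dendritic cells had 92.5 CPM ± 28.2, but only 3 libraries held enough of them. A wide step separated both types from the rest. Mast cells (27.3 CPM ± 25.9), macrophages (27.2 CPM ± 8.76), neutrophils (27.0 CPM ± 20.2), hematopoietic progenitors (25.8 CPM ± 10.2) and monocytes (24.9 CPM ± 9.39) did not differ beyond their spread. The lymphoid types had 4.07 to 10.1 CPM of Il15, the highest in NK cells, and plasmacytoid dendritic cells had 1.03 CPM, where free RNA gave at most 0.224 CPM of Il15. Because neutrophils and their precursors were numerous, they held 21.1% and 18.2% of all Il15 UMIs.

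Il15 in neutrophils was uneven over the libraries. WT acute colitis had 71.5 CPM, App NL-G-F acute colitis had 4.86 CPM, and the other 6 libraries had 14.2 to 33.6 CPM. The low value came from 1 hashtag group, which held 1203 neutrophils at 3.31 CPM, while the other 2 groups of that library had 68.0 and 44.7 CPM. That group belonged to the set with low immediate-early UMIs. In the same group Il4ra stood at 101 CPM, against 26.1 and 37.2 CPM in the other 2 groups, so both genes stood apart in the same hashtag group.

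The alpha chain that presents IL-15, Il15ra, was low in all but 1 type. Migratory dendritic cells had 150 CPM ± 31.7 (n = 3 libraries), and 59.4% of them had a UMI. CD8 T cells came next with 24.0 CPM ± 5.77 (n = 8), followed by fibroblasts with 16.5 CPM ± 8.61 (n = 5) and monocytes with 15.9 CPM ± 6.29 (n = 8). Migratory dendritic cells, which carry Ccr7, thus held high levels of both Il15 and Il15ra, whereas basophils, at 101 CPM of Il15, had 4.14 CPM of Il15ra.

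Il2rg, the shared chain, was found in all 21 types with enough cells for a level. ILC2 had 1003 CPM ± 26.7, with the 8 libraries between 964 and 1049 CPM, and 89.2% of ILC2 had a UMI. Gamma-delta T cells had 921 CPM ± 106, NK cells 737 CPM ± 53.3, CD4 T cells 667 CPM ± 48.4, CD8 T cells 554 CPM ± 37.2 and B cells 439 CPM ± 25.02. From gamma-delta T cells down to B cells, each of these types was above the next in 8 of 8 libraries. Mast cells (418 CPM ± 67.1, n = 7) and migratory dendritic cells (417 CPM ± 79.9, n = 3) lay beside B cells within their spread. Conventional type 2 dendritic cells had 254 CPM, macrophages 205 CPM, developing B cells 148 CPM and monocytes 142 CPM, while neutrophils had 46.7 CPM and their precursors 41.2 CPM.

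**Figure D2:**
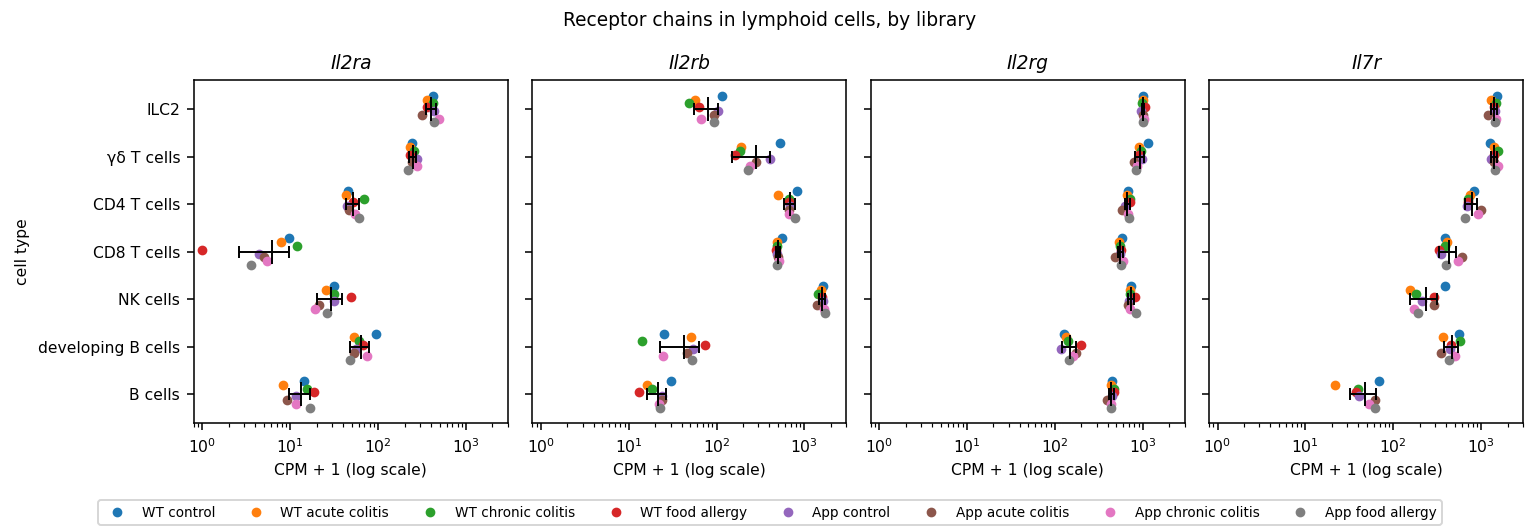
Levels of Il2ra, Il2rb, Il2rg and Il7r in 7 lymphoid cell types (x axis: CPM + 1 on a log scale), 1 coloured point per library, with the mean and SD over libraries in black. Il2rb in NK cells and Il2rg in ILC2 stay within narrow ranges over the 8 libraries, whereas Il2rb in gamma-delta T cells spans 160 to 528 CPM.

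Il2ra, the alpha chain of the IL-2 receptor, was highest in ILC2. By library, ILC2 of WT mice had 416 CPM in control, 359 in acute and 417 in chronic colitis and 363 in food allergy, and those of App NL-G-F mice 426, 311, 489 and 431 CPM in the same order (mean 402 CPM ± 54.8, n = 8). The WT and App NL-G-F values overlapped. ILC2 held 50.6% of all Il2ra UMIs, and 61.4% of ILC2 had a UMI (31.3% after each cell was thinned to 1000 UMIs). Gamma-delta T cells came next with 246 CPM ± 20.5 and were below ILC2 in 8 of 8 libraries. Migratory dendritic cells (98.6 CPM ± 2.12, n = 3), developing B cells (62.4 CPM ± 15.1) and CD4 T cells (50.9 CPM ± 8.99) followed, then NK cells (28.4 CPM) and B cells (12.2 CPM). CD8 T cells had 5.14 CPM.

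The level of Il2ra was higher in CD4 T cells with a UMI of Foxp3, the factor that defines regulatory T cells, although the CD4 T cells without one held more of its UMIs (526 against 163). Those with Foxp3 had 169 CPM ± 65.5 against 41.5 CPM ± 7.63 in the CD4 T cells without one, and they were higher in 7 of 7 libraries (exact sign-flip permutation test over libraries, two-sided, p = 0.0156, adjusted p = 0.0385 over 32 tests). Il2rb went the other way, at 404 CPM with Foxp3 and 702 CPM without, lower in 7 of 7 libraries (exact permutation test, adjusted p = 0.0385). In clusters at the finer resolution of 1.0, a separate T cell cluster of 1351 cells was led by Klrc1, Klra7 and Il2rb. Its part in this Il2rb difference was not tested. For Il2rg the values were 839 and 644 CPM (exact permutation test, adjusted p = 0.0625), and for Il7r 856 and 785 CPM (exact permutation test, adjusted p = 0.45). With each cell thinned to 1000 UMIs, 17.8% of the cells with Foxp3 and 3.46% of those without had a UMI of Il2ra.

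Il2rb, the beta chain shared by the IL-2 and IL-15 receptors, was highest in NK cells. NK cells of WT mice had 1645 CPM in control, 1559 in acute and 1426 in chronic colitis and 1568 in food allergy, and those of App NL-G-F mice 1606, 1372, 1658 and 1733 CPM in the same order (mean 1571 CPM ± 120.3, n = 8). No library stood apart, and 96.6% of NK cells had a UMI of Il2rb (77.1% thinned). CD4 T cells had 681 CPM ± 94.6, CD8 T cells 498 CPM ± 26.1 and gamma-delta T cells 277 CPM ± 127, each above the next in 8 of 8 libraries. At resolution 1.0 the cluster named CD4 T cells held only 3470 cells. The T cell cluster of 1351 cells led by Klrc1, Klra7 and Il2rb stood apart there and was named CD8 T cells. Its part in the order of CD4 and CD8 T cells was not tested. ILC2, the type with the most Il2ra, had 79.2 CPM ± 24.5 of Il2rb. The cells highest in the alpha chain and those highest in the beta chain were thus different types.

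Il7r, the alpha chain of the IL-7 receptor, was highest in gamma-delta T cells (1409 CPM ± 110, 1259 to 1566 CPM) and ILC2 (1391 CPM ± 107, 1188 to 1502 CPM), which did not differ beyond their spread. In each, about the same share of cells had a UMI (94.69% and 94.98%). CD4 T cells had 779 CPM ± 120 and were below ILC2 in 8 of 8 libraries. Developing B cells (458 CPM ± 83.3) and CD8 T cells (423 CPM ± 93.8) came next and overlapped. Plasmacytoid dendritic cells had 262 CPM ± 23.0 (236 to 288 CPM), below CD8 T cells in 8 of 8 libraries. NK cells had 232 CPM ± 78.2, and mature B cells 47.2 CPM.

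Developing B cells are a series of stages, and Igll1 and Vpreb1, parts of the surrogate light chain, mark its early pre-B end. Cells with a UMI of either gene had lower CPM of 7 members than those without. Il2ra was 20.3 against 94.0 CPM, Il2rb 6.03 against 69.8 CPM, Il2rg 77.4 against 199 CPM, Il4ra 4.13 against 24.0 CPM and Il21r 31.7 against 61.3 CPM, all lower in 8 of 8 libraries (exact permutation test, two-sided, adjusted p = 0.0278 for each). Il7r was 346 against 543 CPM and Il15ra 4.02 against 6.86 CPM, each lower in 7 of 8 libraries (exact permutation test, adjusted p = 0.0385 for each). Il15, at 3.85 against 8.40 CPM, did not pass the exact permutation test (adjusted p = 0.0735). The median depth of the cells with either gene was 7519 UMIs, against 2228 in those without. Shares of cells with a UMI were also taken with each cell thinned to equal depth. They were lower with either gene for Il2ra (2.89% against 11.6%), Il2rb (1.03% against 2.36%) and Il2rg (8.88% against 14.8%). The same held for Il7r (33.2% against 42.6%), Il4ra (0.620% against 2.73%) and Il21r (3.20% against 6.38%). Il15ra (0.826% against 0.632%) and Il15 (1.55% against 1.12%) were higher. The thinned shares were not tested, nor was the part of depth in the CPM differences.

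In NK cells, a split by Gzmc, a granzyme gene, separated 3 receptor chains upward. NK cells with a Gzmc UMI had 1785 CPM of Il2rb against 1526 CPM without, 969 CPM of Il2rg against 691 CPM, and 205 CPM of Il21r against 106 CPM, all higher in 8 of 8 libraries (exact permutation test, adjusted p = 0.0278 for each). Il15ra was lower, at 6.51 against 12.98 CPM in 8 of 8 libraries (exact permutation test, adjusted p = 0.0278). Il2ra (50.6 and 24.5 CPM, adjusted p = 0.0536), Il4ra (81.1 and 55.7 CPM, adjusted p = 0.0625) and Il7r (190 and 241 CPM, adjusted p = 0.167) did not pass the exact permutation test. A split of CD8 T cells by Ccl5 was possible in only 2 libraries, where the smallest p that the test allows is 0.5.

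Il4ra, the chain shared by the IL-4 and IL-13 receptors, had no sharp peak. Migratory dendritic cells had 109 CPM ± 29.8 (n = 3), macrophages 80.8 CPM ± 18.0, monocytes 80.0 CPM ± 51.4, mast cells 76.6 CPM ± 41.2, conventional type 2 dendritic cells 74.9 CPM ± 44.7, B cells 69.1 CPM ± 8.68, ILC2 63.0 CPM ± 20.8, CD4 T cells 62.7 CPM ± 9.49 and NK cells 59.7 CPM ± 6.16. The library values of neighbours in this order overlapped. The SDs of monocytes and conventional type 2 dendritic cells over libraries were several times those of B cells and NK cells. Plasma cells had 3.74 CPM.

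Il21r was likewise shared by several types. After migratory dendritic cells (272 CPM ± 47.8, n = 3, with a UMI in 69.5% of cells) came CD8 T cells (152 CPM ± 26.4), plasmacytoid dendritic cells (142 CPM ± 29.6), B cells (137 CPM ± 15.8), CD4 T cells (133 CPM ± 25.5) and NK cells (122 CPM ± 21.2), whose library values overlapped. Macrophages had 76.1 CPM. ILC2 (20.7 CPM) and gamma-delta T cells (27.9 CPM), the types with the most Il7r, were low in Il21r.

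The order of the types was tested between neighbours with an exact two-sided sign-flip permutation test over libraries, in 160 tests. With 8 libraries the smallest p it allows is 0.0078, and that p adjusted over the 160 tests was 0.0781, so no neighbours could pass the threshold of 0.05. Neighbours with 8 of 8 libraries in 1 direction were found 5 times for Il2rb, 4 for Il2rg, 3 each for Il2ra and Il7r, once for Il21r, and never for Il15, Il15ra and Il4ra.

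Cells that carried several hashtags, which can hold material of more than 1 cell, had higher levels of some members in myeloid types. Among macrophages, 28.3% of the cells carried several hashtags, and these gave 76.1% of the Il2rb UMIs and 82.3% of the Il7r UMIs of that type. Macrophages with 1 hashtag had 57.0 CPM ± 41.2 of Il2rb, those with several 220 CPM. Il7r was 50.5 and 265 CPM. The 5 T cell markers (Cd3d, Cd3e, Cd3g, Trac and Trbc2) summed to 167 CPM and 1042 CPM in the same cells. Il2ra (5.46 and 27.1 CPM) and Il2rg (134 and 302 CPM) went the same way. Il15, Il4ra, Il21r and Il15ra in macrophages stood at 32.9, 90.3, 73.7 and 10.1 CPM with 1 hashtag against 19.8, 65.0, 81.0 and 12.6 CPM with several.

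In monocytes and conventional type 1 dendritic cells the same was seen for Il2rb, which had 5.65 and 4.63 CPM in cells with 1 hashtag and 113 and 97.9 CPM in those with several. In plasmacytoid dendritic cells, Il7r was 259 CPM ± 20.3 with 1 hashtag and 286 CPM with several, and only 10.5% of its UMIs came from the latter.

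**Figure D3:**
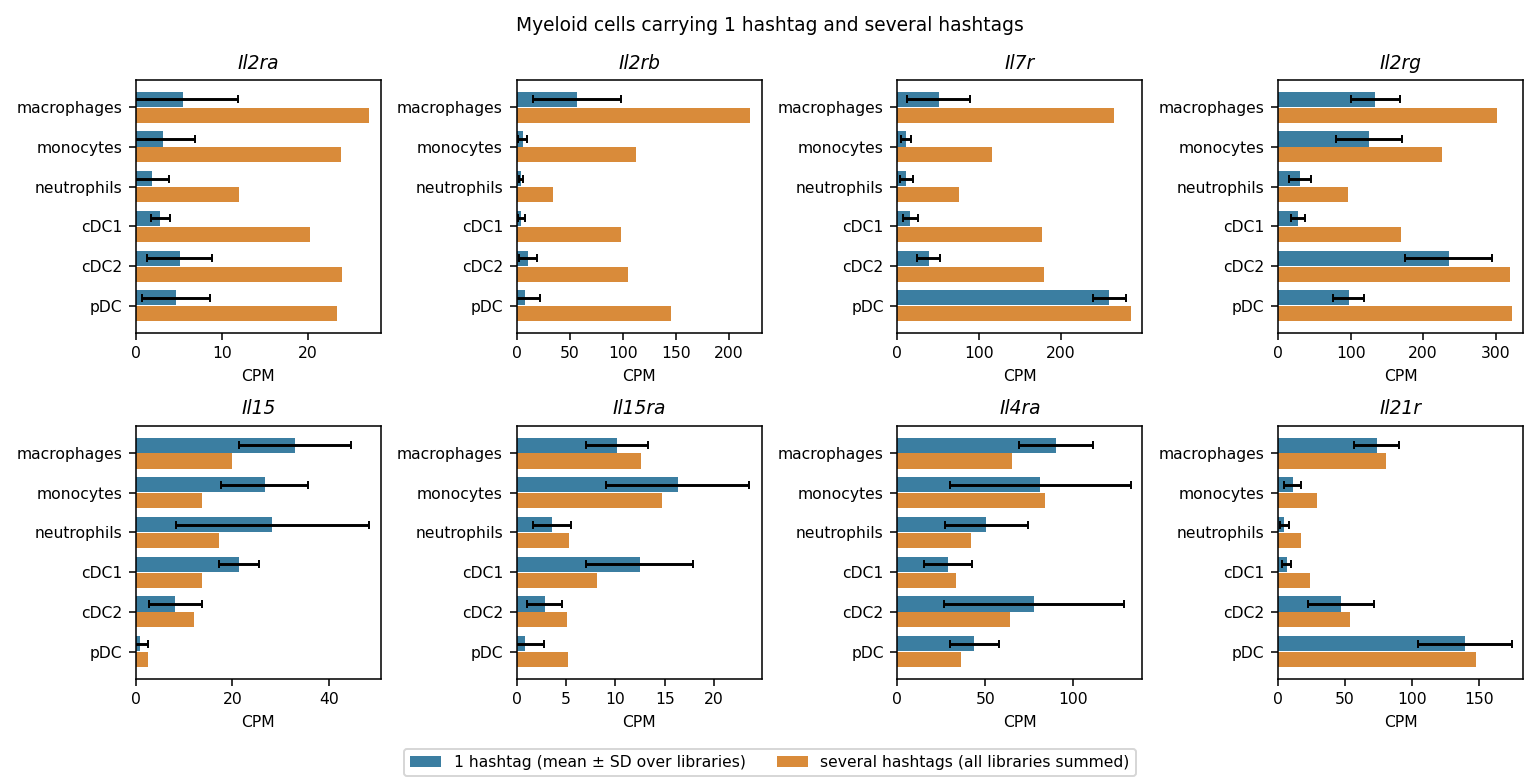
Level of each of the 8 genes (bars in CPM from 0) in 6 myeloid types, in cells carrying 1 hashtag (mean and SD over libraries) and in cells carrying several (all libraries summed). Il2rb and Il7r in macrophages are several times higher in cells with several hashtags, whereas Il7r in plasmacytoid dendritic cells is similar in both.

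To put the genes beside all others, UMIs were summed over the lymphoid and over the myeloid types of each library and compared with edgeR's quasi-likelihood test with the library as a block, over 13036 genes. All 8 members passed the test, 5 of them higher in lymphoid cells and 3 in myeloid cells, where 40.5% of all genes were called higher in lymphoid and 35.4% in myeloid cells. A call alone therefore says little here, and the sizes and library counts carry the comparison. With scaling by library size only, the median of all genes moved from 0.05 to 0.23 (log2), and the calls split into 6544 lymphoid and 3490 myeloid genes, against 5274 and 4616 before.

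Il2ra (80.9 CPM in lymphoid and 5.63 CPM in myeloid cells, mean of 8 libraries) and Il2rb (305 and 20.6 CPM) both differed by 3.73 on the log2 scale (SE 0.14 and 0.15). Il7r differed by 3.30 (SE 0.09; 474 and 42.9 CPM), Il2rg by 2.34 (SE 0.14; 479 and 87.7 CPM) and Il21r by 1.42 (SE 0.08; 74.0 and 25.03 CPM). These 5 genes were higher in lymphoid cells in 8 of 8 libraries. In cells with 1 hashtag the differences were wider, at 4.67 for Il2ra, 5.46 for Il2rb, 4.15 for Il7r, 2.64 for Il2rg and 1.52 for Il21r.

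Il15 was higher in myeloid cells in 8 of 8 libraries, with 6.95 CPM in lymphoid and 20.9 CPM in myeloid cells and a log2 difference of -1.69 (SE 0.17). Il4ra (40.0 and 49.7 CPM) differed by -0.43 (SE 0.16, edgeR adjusted p = 0.0336) and Il15ra (8.76 and 9.02 CPM) by -0.23 (SE 0.07, edgeR adjusted p = 0.0111). Both were small, and both were lost with scaling by library size only, at -0.24 (edgeR adjusted p = 0.134) and -0.05 (edgeR adjusted p = 0.591). For Il15ra the call was also lost without the library as a block, at edgeR adjusted p = 0.058. Without the WT control, App NL-G-F control or App NL-G-F acute colitis library, Il4ra had edgeR adjusted p values of 0.0878, 0.0773 and 0.0768.

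**Figure D4:**
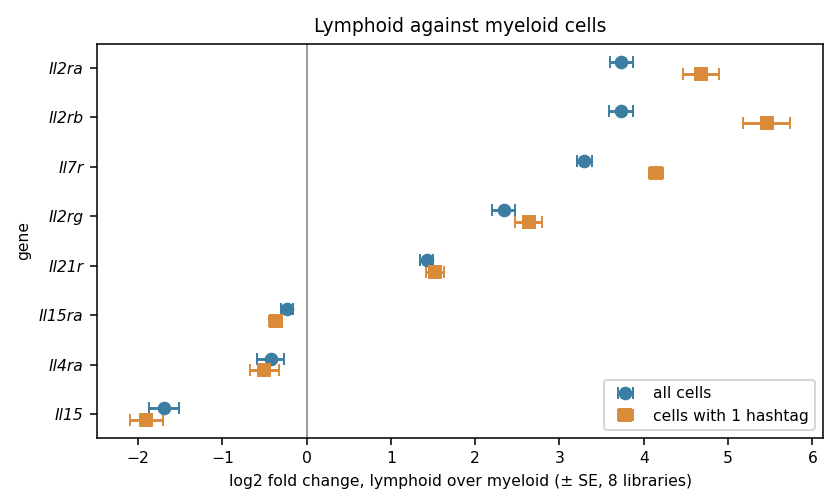
Log2 difference between lymphoid and myeloid cells for the 8 genes (edgeR estimate ± SE over 8 libraries, positive where lymphoid cells were higher), for all cells and for cells with 1 hashtag. Il2ra, Il2rb and Il7r lie above 3 and Il15 at -1.69, while Il4ra and Il15ra lie near 0.

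The wider pathway was read from a list of 22 genes, of which 19 could be tested. In the same comparison 9 were higher in lymphoid and 9 in myeloid cells. Of the 3 ligands tested, Il2 (log2 difference 3.59) and Il4 (1.02) were higher in lymphoid cells and Tslp (-5.05) in myeloid cells. Of the 3 other receptor chains, Il9r (3.71), the IL-9 receptor, was higher in lymphoid cells, and Il13ra1 (-3.25), which pairs with Il4ra, and Crlf2 (-0.75), which pairs with Il7r in the receptor for TSLP, in myeloid cells. The kinases Jak1 (1.03) and Jak3 (0.82) were higher in lymphoid cells and Stat3 (-0.48), Stat5a (-0.34) and Stat5b (-0.16) in myeloid cells, and Stat6 stood at 0.05 (edgeR adjusted p = 0.400). Among the targets and inhibitors, Cish (3.06), Socs1 (2.67), Socs2 (2.50) and Bcl2 (2.49) were higher in lymphoid cells and Socs3 (-1.97), Mcl1 (-0.70) and Pim1 (-0.25) in myeloid cells.

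Il2, Cish and Socs1 had their highest level in ILC2, the type with the most Il2ra. Il4 and Il21 were highest in types other than those highest in Il4ra and Il21r. Il2 was highest in ILC2 (58.0 CPM), ahead of CD4 T cells (25.1 CPM), Il4 in mast cells (277 CPM) and basophils (107 CPM), and Il21 in CD4 T cells (5.42 CPM). Cish, an inhibitor induced by STAT5, had 305 CPM in ILC2 and 227 CPM in gamma-delta T cells, and Socs1 317 and 281 CPM. Il7 had 113 UMIs in all cells together, and Il9 had none.

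The genes whose pattern over the 22 types was most like that of a member were found by Pearson correlation of log2(mean CPM + 1) among 11416 genes. The types share libraries, and no p is given. For Il2ra they were Icos (0.89), Xlr4a (0.85) and Il7r (0.84), and for Il2rb Txk (0.97), Ctsw (0.96) and Gimap3 (0.95). For Il7r they were Socs1, Skap1 and Xlr4b (each 0.90), and for Il2rg H2-K1 (0.93), H2-Q4 and H2-Q7 (each 0.92), of which the H2 genes are near-identical copies whose reads may be split. Il21r was most like Trim5 (0.93), Rras2 (0.91) and Irf1 (0.89), and Il4ra most like Rap2c (0.92), Map3k3 and Myo9b (each 0.91). For Il15ra (Gbp5 0.85, Arhgap31 0.83, Txndc17 0.80) and Il15 (Cd63 0.76, Rab31 0.75, Ston2 0.73) the likeness was weaker.

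The study's question was how gut inflammation and food allergy alter the immune cells of the brain in both genotypes. Each treatment was compared with the control of its genotype within each cell type by edgeR's quasi-likelihood test over all genes, with hashtag groups of at least 20 cells as samples. Each condition is 1 library, so library and condition cannot be told apart, and the p values measure only the spread between hashtag groups. In summed counts, fewer cells of a subtype and less RNA per cell cannot be told apart either. The 3 treatments of a genotype share the control groups.

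In WT mice, 12 pairs of a member and a cell type passed the test, and all 12 fell. These were 5 of 71 pairs in acute colitis, where 0.891% of all gene and type pairs fell, 4 of 71 in chronic colitis (0.944% of all pairs) and 3 of 71 in food allergy (0.461%). Among App NL-G-F mice 1 of 71 pairs fell in acute colitis (0.29% of all pairs), 1 of 77 in chronic colitis (0.236%) and 0 of 81 in food allergy (0.0258%), where 6 pairs had an unadjusted edgeR p under 0.05. No member rose in any treatment, where the share of all pairs that rose was 2.08%, 2.21% and 1.24% in WT acute colitis, chronic colitis and food allergy and 0.157%, 0.0986% and 0.00397% in those of App NL-G-F mice. Il4ra gave 8 of the 12 pairs in WT mice (of 38 tests) and both in App NL-G-F mice (of 39), Il2rb gave 3 and Il21r 1. The share of all genes that fell differed by type. In WT acute colitis, chronic colitis and food allergy, 422, 439 and 224 of 5369 genes fell in monocytes. The numbers were 61, 59 and 10 of 6030 in conventional type 2 and 181, 149 and 98 of 7801 in conventional type 1 dendritic cells. Gamma-delta T cells had 42, 60 and 52 of 5634. In App NL-G-F monocytes 117, 140 and 13 of 5369 genes fell in the same order.

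Il4ra fell in monocytes. The 2 hashtag groups of WT control had 130 and 208 CPM. Acute colitis had 26.4 and 49.9 CPM, chronic colitis 41.9 and 30.4 CPM, and food allergy 56.5 and 57.1 CPM. All 6 treated groups were below both control groups. The App NL-G-F controls had 161 and 140 CPM, acute colitis 14.2 and 38.3 CPM, chronic colitis 50.8 and 43.1 CPM, and food allergy 153 and 84.9 CPM. Here the colitis groups lay below the controls, and food allergy overlapped with them.

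The log2 differences of Il4ra in WT monocytes were -2.24 in acute colitis (SE 0.35, edgeR adjusted p = 7.89e-05), -2.14 in chronic colitis (SE 0.31, edgeR adjusted p = 2.61e-05) and -1.58 in food allergy (SE 0.24, edgeR adjusted p = 7.32e-05). Those of App NL-G-F monocytes were -2.57 in acute colitis (SE 0.50, edgeR adjusted p = 0.00366), -1.73 in chronic colitis (SE 0.34, edgeR adjusted p = 0.00273) and -0.25 in food allergy (SE 0.27, edgeR adjusted p = 0.899). The food allergy effects of the genotypes differed by 1.33 (SE 0.37), which did not pass the test (edgeR adjusted p = 0.0873). The controls of the genotypes differed by -0.15 (edgeR adjusted p = 0.843). The counts behind the App NL-G-F acute groups were 2 and 5 UMIs. Without hashtag 4 of that library the value was -2.07 (edgeR adjusted p = 0.127), and without hashtag 6 or 7 of App NL-G-F chronic colitis the chronic value was -1.86 (edgeR adjusted p = 0.0560) or -1.65 (edgeR adjusted p = 0.0569). With the WT control library left out of the fit, the App NL-G-F values were -2.56 and -1.73 (edgeR adjusted p = 0.00112 and 0.0008).

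The make-up of the monocytes also differed between the conditions. Ly6c2, Ccr2 and Chil3, genes of classical monocytes, summed to 9500 to 11311 CPM in WT control, against 2925 to 3405 CPM in acute colitis, 3842 to 4988 CPM in chronic colitis and 3502 to 4114 CPM in food allergy. Those of App NL-G-F mice summed to 5815 to 8887 CPM in controls, 2080 to 2258 CPM in acute colitis, 2975 to 3676 CPM in chronic colitis and 3183 to 4835 CPM in food allergy. This last sum lay below the controls, while Il4ra overlapped with them. Ace, Treml4 and Cd300e, genes of non-classical monocytes, summed to 30.3 to 52.8 CPM in WT control and 95.7 to 150 CPM in acute colitis. WT chronic colitis had 40.2 to 73.1 CPM and food allergy 34.1 to 97.2 CPM. App NL-G-F control had 65.8 to 140 CPM, acute colitis 191 to 312 CPM, chronic colitis 248 to 369 CPM and food allergy 32.3 to 50.9 CPM. The 12 neutrophil markers in the same cells summed to 2515 to 2663 CPM in WT control, 343 to 539 CPM in acute colitis, 712 to 1164 CPM in chronic colitis and 1133 to 1808 CPM in food allergy. In App NL-G-F mice the sums were 3574 to 8554, 405 to 589, 535 to 583 and 1290.1 to 4356 CPM in the same order, so that food allergy overlapped with the controls. The 8 B cell markers were low in controls and higher in colitis, at 9.31 to 10.4 CPM in WT control, 304 to 313 CPM in acute colitis, 124 to 426 CPM in chronic colitis and 36.0 to 49.4 CPM in food allergy. In App NL-G-F mice they summed to 7.05 to 33.5, 206 to 253, 161 to 742 and 10.8 to 12.7 CPM in the same order. The 10 immediate-early genes summed to 14378 to 14799, 9480.3 to 9851, 5016 to 6630 and 10032 to 11096 CPM in WT mice. Their sums in App NL-G-F mice were 11202 to 11967, 8473 to 9150, 7721 to 9205 and 10393 to 10906.5 CPM. The part of any of these in the Il4ra values was not tested.

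**Figure D5:**
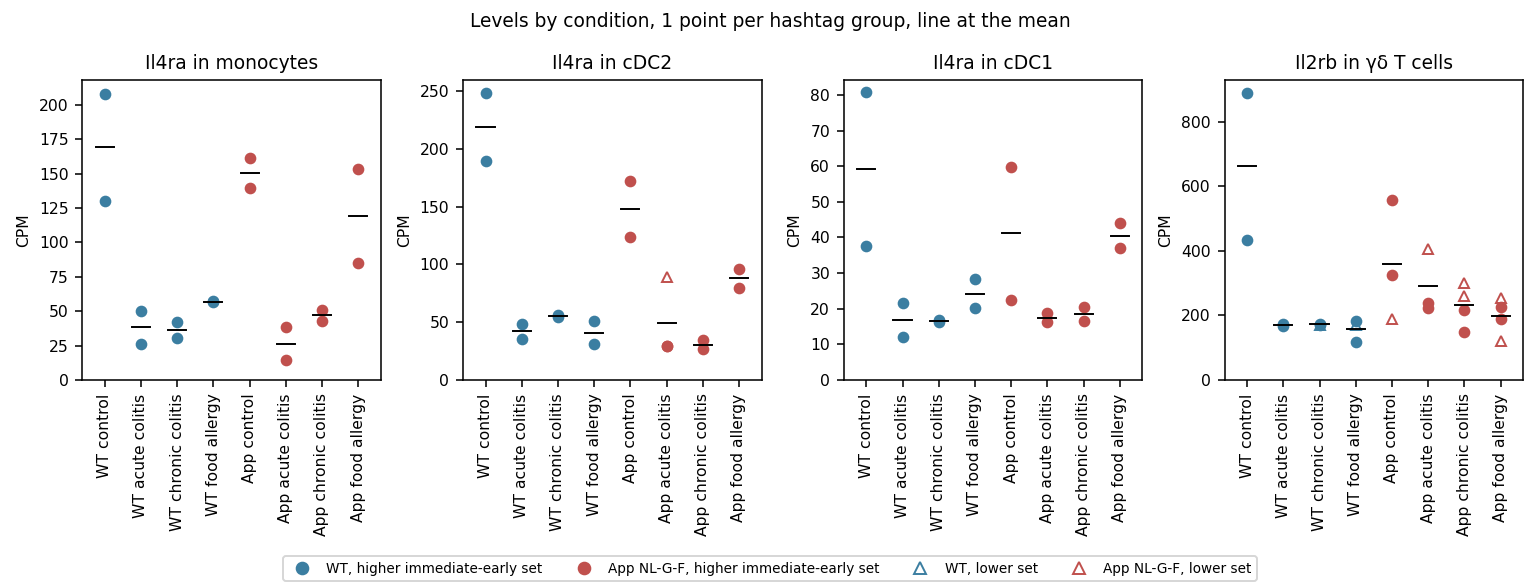
Levels by condition (CPM, linear axis from 0) of Il4ra in monocytes, conventional type 2 (cDC2) and type 1 (cDC1) dendritic cells and of Il2rb in gamma-delta T cells, 1 point per hashtag group with a line at the mean, filled for the higher and open for the lower immediate-early set. Il4ra in WT monocytes is 130 and 208 CPM in the control groups and 26.4 to 57.1 CPM in the 6 treated groups.

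Il4ra also fell in conventional type 2 dendritic cells of WT mice. The control groups had 190 and 249 CPM (UMI counts of 80 and 93), acute colitis 48.6 and 35.6 CPM, chronic colitis 56.5 and 54.7 CPM, and food allergy 50.8 and 31.3 CPM. No treated group overlapped with the controls. The log2 differences were -2.18 (SE 0.34, edgeR adjusted p = 0.00105), -1.96 (SE 0.37, edgeR adjusted p = 0.00555) and -2.31 (SE 0.35, edgeR adjusted p = 0.00159). In App NL-G-F mice the controls had 124 and 172 CPM and the colitis groups 26.6 to 89.5 CPM, with log2 differences of -1.65 (edgeR adjusted p = 0.0529) in acute and -2.30 (edgeR adjusted p = 0.0650) in chronic colitis, and food allergy had 96.2 and 79.9 CPM (-0.75, edgeR adjusted p = 0.925). The WT chronic call was lost without hashtag 7 of WT control (-1.78, edgeR adjusted p = 0.0770) or hashtag 6 of chronic colitis (-1.94, edgeR adjusted p = 0.166), and the food allergy call without hashtag 5 of food allergy (-2.02, edgeR adjusted p = 0.0509). The markers of these dendritic cells summed to 3490 to 4091 CPM in WT control and 1497 to 2605 CPM in chronic colitis, but to 3339 to 3977 CPM in acute colitis and 3606 to 4075 CPM in food allergy, where Il4ra was also low. In App NL-G-F mice these markers summed to 4018 to 4517 CPM in controls and 531 to 3724 CPM in acute colitis. Chronic colitis had 2245 to 2920 CPM and food allergy 2556 to 3560 CPM. The part of the markers, or of the 2 clusters joined in this type, in the Il4ra values was not tested.

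In conventional type 1 dendritic cells of WT mice, Il4ra was 37.7 and 80.7 CPM in control groups, 21.5 and 12.04 CPM in acute colitis, 16.9 and 16.2 CPM in chronic colitis and 20.1 and 28.4 CPM in food allergy. The differences were -1.53 in acute colitis (SE 0.40, edgeR adjusted p = 0.0234), -1.66 in chronic colitis (SE 0.42, edgeR adjusted p = 0.0187) and -1.22 in food allergy (edgeR adjusted p = 0.159). These calls were fragile. Leaving out 1 hashtag group ended each in 3 of 4 cases, with -0.94 (edgeR adjusted p = 0.446) and -1.07 (edgeR adjusted p = 0.339) without hashtag 7 of WT control. Without hashtag 4 or 5 of acute colitis the edgeR adjusted p was 0.0838 or 0.125, and without hashtag 6 or 7 of chronic colitis 0.108 or 0.118. DESeq2 gave adjusted p values of 0.0573 and 0.0581. In the types other than these 3, no Il4ra difference passed the test. Over all 38 tests of Il4ra in WT treatments the median was -0.70, 14 had an unadjusted edgeR p under 0.05, and values ran from -2.31 to 0.92. Among the other types, ILC2 in food allergy stood at -1.40 (edgeR adjusted p = 0.0801), macrophages in acute colitis at -0.87 (edgeR adjusted p = 0.291) and B cells in acute colitis at 0.28 (edgeR adjusted p = 0.808).

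Il21r fell in conventional type 2 dendritic cells of WT acute colitis. Control groups had 102 and 74.8 CPM, acute colitis 15.0 and 17.8 CPM, chronic colitis 36.9 and 39.8 CPM, and food allergy 45.7 and 41.7 CPM. The difference in acute colitis was -2.33 (SE 0.37, edgeR adjusted p = 0.00117), and -2.19 (edgeR adjusted p = 0.0836) without hashtag 4 of WT acute colitis. In chronic colitis it was -1.22 (edgeR adjusted p = 0.0882). In App NL-G-F mice the control groups had 108 and 47.0 CPM and the 5 colitis groups 14.8 to 29.1 CPM, below both controls, but neither acute (-1.72, edgeR adjusted p = 0.0529) nor chronic colitis (-2.24, edgeR adjusted p = 0.0650) passed the test. The markers of these dendritic cells were also lower in those colitis groups. They summed to 531 to 3724 CPM in acute and 2245 to 2920 CPM in chronic colitis, against 4018 to 4517 CPM in controls. Their part in the Il21r values was not tested, nor was that of the 2 clusters joined in this type.

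Il2rb fell in gamma-delta T cells of WT mice in all 3 treatments. The control groups had 434 and 891 CPM. Acute colitis had 168 and 173 CPM, chronic colitis 170.3, 171 and 174 CPM, and food allergy 182, 117 and 171 CPM. The treated groups lay close together and far below both controls. The log2 differences were -1.90 (SE 0.36, edgeR adjusted p = 0.00143), -1.93 (SE 0.33, edgeR adjusted p = 0.000282) and -2.11 (SE 0.34, edgeR adjusted p = 0.000263), and the first was lost without hashtag 7 of WT control (-1.30, edgeR adjusted p = 0.0800).

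In App NL-G-F mice, Il2rb in gamma-delta T cells overlapped between control and treated groups. Controls had 190.2, 327 and 559 CPM, acute colitis 224 to 407 CPM, chronic colitis 150.0 to 301 CPM and food allergy 119.8 to 253 CPM. The differences were -0.54, -0.84 and -1.02 (edgeR adjusted p = 0.837, 0.351 and 0.207). The genotype difference in the effect was 1.36 in acute colitis (edgeR adjusted p = 0.346) and 1.10 in both other treatments, so a difference between genotypes was not shown. The gamma-delta genes Cd163l1, Tcrg-V6, Il17a and Blk summed to 3639 to 4325 CPM in WT control, 3254 to 3563 CPM in acute colitis, 2964 to 3782 CPM in chronic colitis and 3103 to 3596 CPM in food allergy. The 11 NK cell markers summed to 59.1 to 81.7 CPM in WT control, 125 to 130 CPM in acute colitis, 137 to 231 CPM in chronic colitis and 15.5 to 121 CPM in food allergy. The part of either list in the Il2rb values was not tested.

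Il2ra and Il2rb did not pass the test in the types where each was highest. For Il2ra in ILC2 and Il2rb in NK cells, every treatment and genotype difference was within 0.40 on the log2 scale, with an edgeR adjusted p of at least 0.702. Il2rb in ILC2 stood at -1.45 in WT chronic colitis (SE 0.43, edgeR adjusted p = 0.0849), and Il7r in NK cells at -1.56 in WT acute colitis (SE 0.58, edgeR adjusted p = 0.280). Il15 in neutrophils had 14.2 and 8.64 CPM in the WT control groups and 56.3 and 95.4 CPM in WT acute colitis, a difference of 2.44 that did not pass the test (SE 0.85, edgeR adjusted p = 0.123).

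Between the controls of the genotypes, 1 of 77 pairs was lower in App NL-G-F mice, where 0.17% of all pairs were, and none was higher, where 1.69% of all pairs were. It was Il7r in conventional type 1 dendritic cells, with 25.1 and 30.3 CPM in WT control (16 and 15 UMIs) and 5.87 and 0 CPM in App NL-G-F control (6 and 0 UMIs), a fitted difference of -2.98 (SE 0.79, edgeR adjusted p = 0.0491). The 5 T cell markers in the same cells summed to 28.2 to 72.2 CPM in WT control and 1.11 to 21.5 CPM in App NL-G-F control, and their part in the Il7r values was not tested. With a group at 0 UMIs, this fitted value depends on the prior count and is no bound. With doublets removed it was -2.02 (edgeR adjusted p = 0.413), and without hashtag 6 or 7 of WT control or hashtag 7 of App NL-G-F control the edgeR adjusted p was 0.156, 0.184 or 0.267. The treatment effects of the genotypes differed in 1 of 71 pairs in acute colitis, which was the same gene and type, and in 0 of 71 in chronic colitis and food allergy, where 6 and 8 pairs had an unadjusted edgeR p under 0.05. Of all gene and type pairs 0.93%, 1.22% and 0.602% differed in the 3 treatments.

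The pathway list was tested in the same fits. Of 175 pairs of a pathway gene and a type, 12 fell in WT acute colitis (0.891% of all gene and type pairs fell), 15 in chronic colitis (0.944%) and 8 in food allergy (0.461%). Among App NL-G-F mice 4 of 175 fell in acute colitis (0.29% of all pairs), 4 of 189 in chronic colitis (0.236%) and 0 of 199 in food allergy (0.0258%). No pathway gene rose in any of the 6 comparisons. Over all genes in WT acute colitis, chronic colitis and food allergy, 422, 439 and 224 of 5369 fell in monocytes. In conventional type 1 dendritic cells 181, 149 and 98 of 7801 fell. In monocytes of WT acute colitis, Socs3 (-2.31), an inhibitor induced by STAT3, Pim1 (-1.05), a STAT target kinase, Il13ra1 (-0.72), Stat3 (-0.70) and Mcl1 (-0.47) fell by edgeR's test. In chronic colitis Socs3 (-2.88), Pim1 (-1.86) and Il13ra1 (-1.22) fell in the same cells, and in App NL-G-F acute colitis Socs3 (-1.91) and Il13ra1 (-1.37). Socs3 also fell in conventional type 1 dendritic cells of acute colitis in both genotypes, by 3.36 in WT and by 3.31 in App NL-G-F mice. Immediate-early genes in monocytes summed to 14378 to 14799 CPM in WT control, 9480.3 to 9851 CPM in acute colitis, 5016 to 6630 CPM in chronic colitis and 10032 to 11096 CPM in food allergy. In App NL-G-F mice the sums were 11202 to 11967, 8473 to 9150, 7721 to 9205 and 10393 to 10906.5 CPM in the same order. The part of the immediate-early genes in these pathway values was not tested.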

How the data were processed

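Brain CD45.2+ cells were measured in 8 droplet libraries (10x Genomics 5′ kit). The authors deposited raw UMI counts per gene and barcode, unfiltered and without normalization, made on mm10 with Cell Ranger (version 6.1.2 in the submitters' processing notes, Cell Ranger 4 in the file headers). The members and gene lists were chosen with earlier results of these data known.

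Barcodes above an order-of-magnitude cutoff (3000 expected cells), or with at least 500 UMIs and an ambient-profile false discovery rate of at most 0.01, were kept with 200 or more genes and no more than 5% of UMIs from mitochondrial genes. Counts gave 2000 variable genes without the members, 30 principal components, 20 neighbours and Leiden clusters at resolution 0.5 over all libraries (scanpy 1.11.5, leidenalg 0.10.2, numpy 2.4.6, scipy 1.17.1, pandas 2.3.3, Python 3.11.15, matplotlib 3.10.9), named from marker genes. Doublets were not removed, and Scrublet removal was an alternative. Hashtags needed at least 50 counts. A level needed 20 cells of a type in a library, and free RNA was estimated from S100a8 and S100a9 in B cells. The cells kept held 25615052 to 54618574 UMIs per library, and CPM of few UMIs carry a large counting error.

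Sums per hashtag group or class were tested over all genes with edgeR 4.0.16 (limma 3.58.1, R 4.3.3; quasi-likelihood, TMM, Benjamini-Hochberg, threshold 0.05), with DESeq2 1.42.0 as an alternative. Both edgeR and the sign-flip test were tested on simulated data. Nothing in the labels ties hashtags to separate animals, so p values measure the spread between these samples, which may be technical. Named genes were the 8 members, a pathway list of 22 genes, of which those called are named, the 3 genes most like each member among genes with at least 20 CPM in a type, and splits by Foxp3, Ccl5, Igll1 or Vpreb1, and Gzmc. The 2 immediate-early sets were divided at the widest gap in the data. The cells with 1 hashtag alone, transcripts over 800 nt alone and the fit without the WT control library were chosen after seeing the data. V(D)J reads were not analysed here.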

Additional observations from a re-analysis of the deposited data

Results flagged for a closer look

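Il7r in conventional type 1 dendritic cells was the 1 pair, of 213 tested over 3 treatments, in which the treatment effect differed between the genotypes by a test of the difference itself. The acute colitis effect was higher in App NL-G-F than in WT mice by 4.23 on the log2 scale (SE 1.02, edgeR adjusted p = 0.0371). The WT groups had 25.1 and 30.3 CPM in control and 10.1 and 1.51 CPM in acute colitis, and the App NL-G-F groups 5.87 and 0 CPM in control and 8.63 and 25.8 CPM in acute colitis. The UMIs behind these Il7r values were 16 and 15, 21 and 1, 6 and 0, and 6 and 24. With doublets removed the difference was 3.14 (edgeR adjusted p = 0.425), and DESeq2 gave no adjusted p. Without hashtag 5 of App NL-G-F acute colitis it was 3.17 (edgeR adjusted p = 0.486), without hashtag 7 of App NL-G-F control 3.36 (edgeR adjusted p = 0.143), and without either WT control group or hashtag 5 of WT acute colitis 4.36, 4.12 and 3.83 (edgeR adjusted p = 0.0894, 0.109 and 0.0905). The 5 T cell markers in the same cells summed to 28.2 to 72.2 CPM in WT control, 1.51 to 30.6 CPM in WT acute colitis, 1.11 to 21.5 CPM in App NL-G-F control and 27.3 to 32.3 CPM in App NL-G-F acute colitis, and their part in the Il7r values was not tested. Of the Il7r UMIs in these cells of all libraries, 68.1% lay in cells with several hashtags, which the test left out. In all 3 treatments 0.93%, 1.22% and 0.602% of all gene and type pairs differed between the genotypes.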

How the results depend on the processing

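Leaving out 1 hashtag group or library at a time assumes, where 1 sample remains in an arm, that it varies like the other groups. Recomputed were 140 levels, 130 values of the lymphoid and myeloid comparison and 191 values of single pairs. Of these, 132, 123 and 165 kept their side of the threshold or moved by less than the spread. No log2 difference in the lymphoid and myeloid comparison or in single pairs changed its direction. The levels, and the counts of members among the 130 values, have no direction to change.

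With the order-of-magnitude cutoff alone, levels were 1323 CPM (Il2rb, NK cells), 955 CPM (Il2rg, ILC2) and 1252 CPM (Il7r, gamma-delta T cells). In the low immediate-early set Il2rb in NK cells was 1750.1 CPM and Il2rg in ILC2 924 CPM, and in the high set the latter was 1044 CPM. With equal weight per cell, Il15ra and Il21r in migratory dendritic cells were 247 and 356 CPM. The highest type changed for Il7r to ILC2 with at least 2 markers, doublets removed, resolution 1.0 or the high set, and for Il15, Il15ra, Il4ra and Il21r between immediate-early sets.

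Of the members, 5 were higher in lymphoid and 3 in myeloid cells. Without the library as a block the numbers were 5 and 2, with library size only 5 and 1, and without 1 library 5 and 2 to 3. Member and type pairs called in WT treatments (12) were 19 with the immediate-early set as a term, 31 without a filter and 9 to 15 without 1 hashtag group. In App NL-G-F treatments (2) they were 4 with doublets removed, 7 with at least 2 markers per cell, 1 with at least 50 cells, 6 with the immediate-early set as a term, 19 without a filter, and 1 to 4 without 1 hashtag group. Between controls (1) they were 0 by DESeq2 and with doublets removed, 4 without a filter and 0 to 2 without 1 group, and for the genotype difference in effects (1) 0, 0, 14 and 0 to 2. The cause of these differences was not tested. No paired analysis of conditions was possible because hashtag numbers are not tied to animals across libraries. With 1 library per condition and at times under 10 UMIs per group, small differences were not detectable.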
